A study of Mus musculus with 6 samples.

Results

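The 10 genes that encode the noncollagenous proteins of cartilage matrix were examined, Acan, Hapln1, Comp, Matn1, Matn3, Matn4, Chad, Cnmd, Snorc and Ucma. They were taken by name from a table of read counts for 35976 gene symbols, in which Cnmd is written Lect1 and Snorc 3110079O15Rik, and all 10 were found. The cells were mouse chondrocytes of embryonic day 18.5, strain C57BL/6 x 129S4/SvJae, from cartilage of the hind limb joints. Both groups had been grown on plastic through 16 population doublings with 2 µg/ml doxycycline, which induced a histone H3.3 transgene. In 3 libraries (H3K9M replicates 1, 3 and 5) that transgene carried methionine at lysine 9, and the labels give methylation at this residue as suppressed. In the other 3 (H3WT replicates 1, 2 and 4) it was wild type. The labels name neither a promoter for the transgene nor whether libraries came from separate animals, so p-values measure the spread between these samples, which may be technical. No library of uncultured or early-passage cells was analysed here, so the values describe expanded cells only. The comparison asks how transcripts of expanded chondrocytes differ when methylation of H3 lysine 9 is suppressed.

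Cartilage resists compression because aggrecan, a proteoglycan loaded with charged sugar chains, is bound to hyaluronan and holds water inside a collagen network. Link protein fastens aggrecan to hyaluronan, while matrilins, cartilage oligomeric matrix protein and chondroadherin connect the collagen fibrils with each other, with proteoglycans and with cells. Chondrocytes are known to lose these transcripts when they are expanded on plastic and take on a fibroblast-like form.

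The 4 sequences that follow are the bases before the RefSeq transcription start of members that differ in their results or in their base composition. Each is 250 bases long, on build GRCm38.p6 (mm10), printed 5′ to 3′ on the gene's own strand, and capitals mark CpG dinucleotides. Matn4 is shown because its values did not overlap between the groups, Matn1 because it ranged widely among the libraries, and Acan and Cnmd because they had the most and the fewest CpGs.
Acan, chr7:79052976-79053225, plus strand: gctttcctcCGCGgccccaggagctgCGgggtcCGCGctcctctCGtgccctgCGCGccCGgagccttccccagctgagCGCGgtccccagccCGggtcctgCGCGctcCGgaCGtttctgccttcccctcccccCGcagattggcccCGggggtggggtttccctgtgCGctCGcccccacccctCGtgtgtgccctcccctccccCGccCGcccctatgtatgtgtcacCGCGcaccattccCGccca
Matn1, chr4:130944135-130944384, plus strand: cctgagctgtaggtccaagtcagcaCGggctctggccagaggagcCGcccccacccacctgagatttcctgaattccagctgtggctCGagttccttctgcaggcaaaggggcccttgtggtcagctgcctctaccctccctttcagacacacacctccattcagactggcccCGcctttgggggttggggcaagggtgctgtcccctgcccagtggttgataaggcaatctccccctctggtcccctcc
Matn4, chr2:164405161-164405410, minus strand: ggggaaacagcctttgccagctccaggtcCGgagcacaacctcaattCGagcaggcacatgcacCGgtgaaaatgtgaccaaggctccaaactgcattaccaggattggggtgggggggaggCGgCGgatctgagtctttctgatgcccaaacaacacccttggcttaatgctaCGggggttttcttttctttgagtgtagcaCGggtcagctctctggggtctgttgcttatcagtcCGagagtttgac
Cnmd, chr14:79662184-79662433, minus strand: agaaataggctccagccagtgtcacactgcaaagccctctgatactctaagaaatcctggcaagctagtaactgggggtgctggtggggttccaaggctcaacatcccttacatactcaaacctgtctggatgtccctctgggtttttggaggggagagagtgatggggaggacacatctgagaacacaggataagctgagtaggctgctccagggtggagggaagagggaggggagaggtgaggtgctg

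RefSeq windows were matched for 8 of the 10 genes by symbol, in 9 windows, since Matn4 had 2. The Acan window held 26 CpGs and 74.4% G or C, and the Cnmd window 0 CpGs and 54% G or C. The median over 32851 windows of this length was 6 CpGs (quartiles 2 and 16) and 52.4% G or C (quartiles 45.2% and 61.2%). Thus Acan lay above the upper quartile of both measures and Cnmd below the lower quartile of CpGs. The printed Matn4 window held 8 CpGs and the Matn1 window 4. The 6-base cores ACAAAG and ACAATG, letters that SOX proteins are known to bind, were searched on both strands. They occurred in 0 of the 9 windows, against 25.2% of all windows with either of them. TATAAA, searched on the gene's strand, began 28 bases before the start of Chad and was in no other of the 9 windows, against 7.59% of all. These are descriptions of letters in short windows.

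Libraries held 15113675 to 19606082 counts, and 13761 genes passed the filter on low counts, all 10 genes among them. H3WT replicate 2 stood apart. It was the highest of the 6 libraries for 9 of the 10 genes, against 19.5% of all tested genes, so the fold changes of the 10 genes and the list medians are given with and without it. Defining chondrocyte genes were present in all 6 libraries: Col2a1, the main cartilage collagen, ranged from 4913 to 14110.3 CPM (counts scaled to a common library size of 1000000 reads) and Sox9, the transcription factor that defines chondrocytes, from 114 to 285 CPM. All 5 endothelial markers stayed under 1 CPM in every library. The 8 skeletal muscle markers summed to 21.2 to 226 CPM in H3K9M and 11.1 to 31.7 CPM in H3WT. Of the 4 that were tested, 3 (Myod1, Myh3 and Des) had every H3K9M value above every H3WT value. Groups did not overlap, in either direction, in 19.4% of all genes. By edgeR's quasi-likelihood test the adjusted p was 0.244 for Myod1, 0.249 for Myh3 and 0.255 for Des, so none of the 3 passed. Myog, Myf5, Ckm and Ttn did not reach the filter. Myog had 60, 195 and 4 reads in H3K9M and 0, 0 and 0 in H3WT. Ttn had 29, 90 and 5 reads against 0, 0 and 1, and Ckm 13, 0 and 0 against 0, 0 and 0. Myf5 had 0 reads in every library. The 8 fibroblast markers summed to 12200 to 30300 CPM in H3K9M and 9970 to 34700 CPM in H3WT, with fold changes below 0 in 5 and above 0 in 3. They did not follow 1 pattern. Col1a1, Col1a2, Col3a1 and Thy1 were lowest in H3WT replicate 2 and next lowest in H3K9M replicate 3. Pdgfra was highest in those libraries (243 and 236 CPM). Groups did not overlap in 2 of the 8, 1 in each direction (19.4% of all genes in either). S100a4 had every H3K9M value above every H3WT value (log2 fold change 1.01). Dpt, at 0.255 to 3.37 CPM, had every H3K9M value below every H3WT value (-1.05). Of the osteoblast markers 6 were tested, with fold changes below 0 in 4 and above 0 in 2. Of the tendon markers 4 were tested, with 1 below and 3 above 0. Groups did not overlap in 1 osteoblast and 2 tendon markers (19.4% of all genes). Ibsp (-2.13) and Mkx (-0.46) had every H3K9M value below every H3WT value and Scx (0.91) above. The part of any of these in the results below was not tested.

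With all 6 libraries, the fold changes of the 10 genes were all below 0, that is lower in H3K9M, as were those of 50.4% of all genes. Their median log2 fold change (here also called log2 difference, H3K9M minus H3WT) was -1.28, and that of all genes -0.003. In 7 of the 10 the log2 fold change was -1 or lower, which 5.34% of all genes had. No gene of the 10 passed the test, with 0 at an adjusted p under 0.05 by edgeR's quasi-likelihood test (adjustment over all genes by Benjamini and Hochberg), and 0% of all genes did. At an unadjusted p under 0.05 there was 1 of the 10, Matn4, against 12.2% of all genes in either direction and 5.77% in its direction. DESeq2 called 1 of the 10, also Matn4, and 2.38% of all genes with an adjusted p, and limma-voom called 0. Without H3WT replicate 2, 7 of 10 fold changes were below 0 (47% of all genes), the median was -0.175, and 2 were at -1 or lower (6.63% of all genes). In that fit 0 of the 10 passed the test, as did 0.639% of all genes, and 1, again Matn4, had an unadjusted p under 0.05 with a value below 0 (17.1% of all genes in either direction, 8% in that one). These are bulk libraries, in which fewer cells making a transcript and less of it per cell cannot be told apart.

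**Figure D1:**
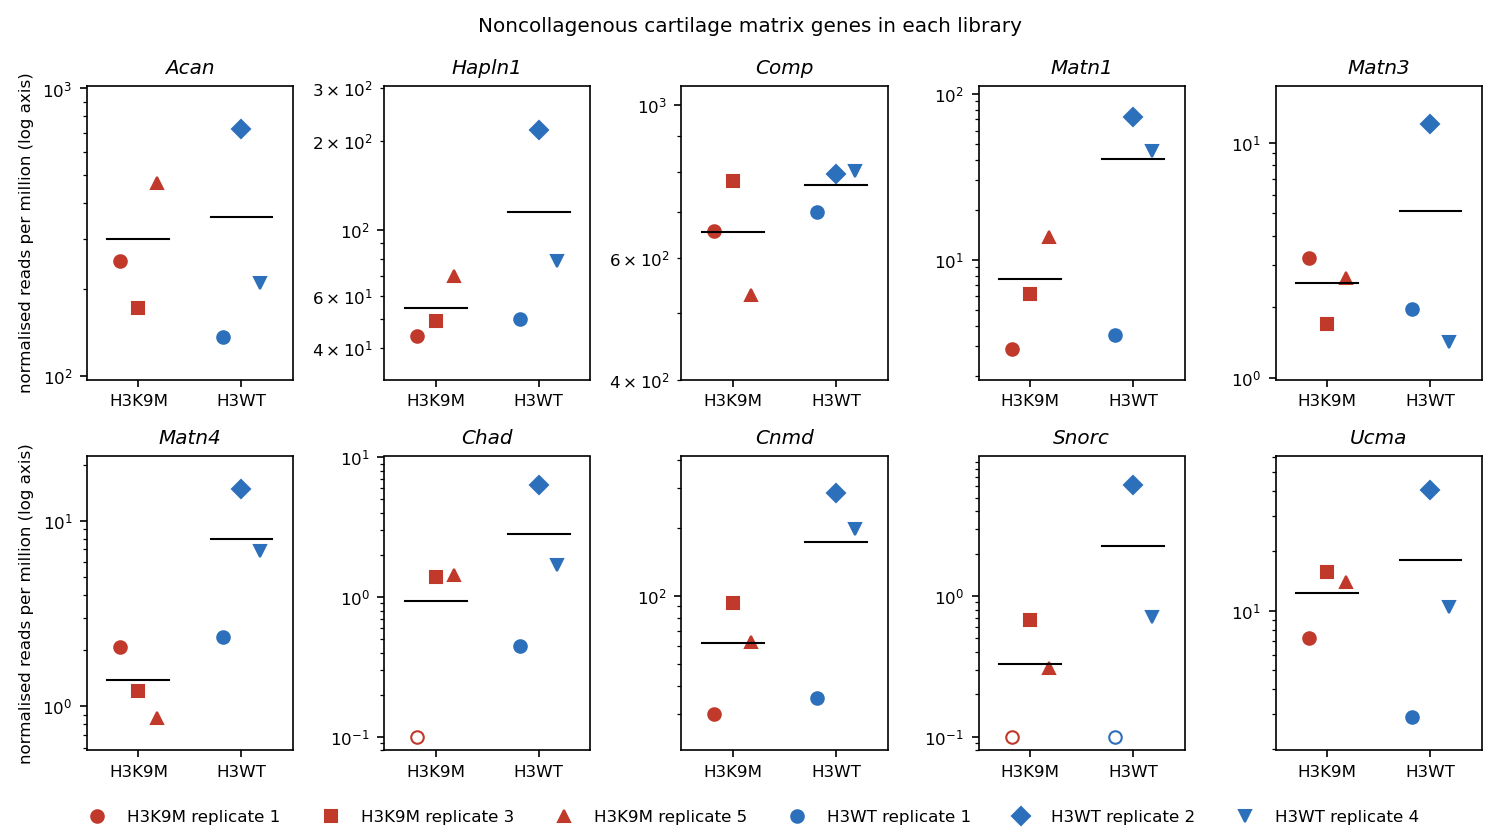
Normalised CPM (log axis, a separate scale in each panel) of the 10 genes in each of the 3 H3K9M (red) and 3 H3WT (blue) libraries, with black lines at the group means and open symbols for values of 0, drawn at 0.1. H3WT replicate 2 (diamond) is the highest library in 9 panels, and only Matn4 has all H3K9M values below all H3WT values.

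Aggrecan transcripts were abundant in both groups and overlapped widely. Acan (chr7:79053483-79115099, plus strand, mm10) had 251, 172 and 469.7 CPM in H3K9M replicates 1, 3 and 5 and 136, 722 and 210.0 CPM in H3WT replicates 1, 2 and 4. The highest and the lowest library were thus both H3WT, and H3K9M replicate 5 was the second highest. Its log2 difference was -0.26 (SE 0.69, 95% interval -1.94 to 1.43, edgeR adjusted p 0.92). Without H3WT replicate 2 it was 0.79 (95% interval -0.35 to 1.93, adjusted p 0.446), with the opposite sign.

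Hapln1, which encodes link protein, varied less among the H3K9M libraries than Acan. Hapln1 (chr13:89539796-89611652, plus strand) had 43.9, 49.4 and 69.95 CPM in H3K9M and 50.2, 217 and 78.2 CPM in H3WT, in the same order of replicates. H3WT replicate 2 was 2.77 times the next library, and the groups overlapped only in that H3WT replicate 1 lay between H3K9M replicates 3 and 5. Between groups the log2 difference was -1.08 (SE 0.55, 95% interval -2.43 to 0.27, edgeR adjusted p 0.485), and -0.23 without H3WT replicate 2 (95% interval -0.83 to 0.38).

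The proteins of Acan and Hapln1 act together in one complex, so their reads were set against each other within each library, a ratio that scaling between libraries does not touch. Reads of Acan per read of Hapln1 numbered 5.71, 3.49 and 6.72 in H3K9M and 2.72, 3.33 and 2.68 in H3WT. The groups did not overlap, but the counting intervals (95%, exact) of the nearest pair did: 3.25 to 3.74 in H3K9M replicate 3 and 3.22 to 3.45 in H3WT replicate 2. The mean difference was 0.82 on the log2 scale (mean 2.35 ± 0.49 in H3K9M and 1.53 ± 0.17 in H3WT, SD, n = 3 each), with a two-sided exact permutation p of 0.1, the smallest that 3 against 3 allows. It was 0.92 without H3WT replicate 2. This ratio was described after the values were seen. Among all 45 ratios of 2 of the 10 genes, 8 did not overlap between the groups (17.8%), close to the 18.5% found over all pairs of tested genes. Of the 8, 4 had Matn4 and 4 had Ucma as one of the pair, counting Matn4 with Ucma in both, and Acan with Hapln1 was the only one without either.

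**Figure D2:**
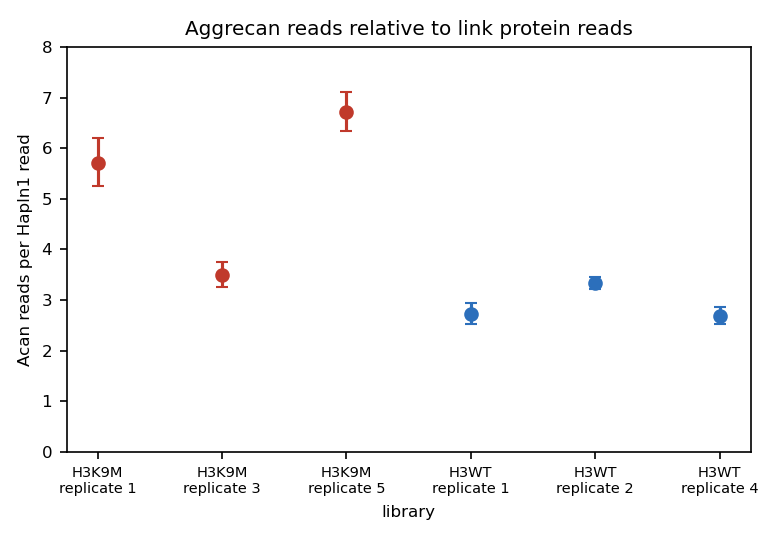
Reads of Acan per read of Hapln1 (vertical axis, from 0) in each of the 6 libraries, red for H3K9M and blue for H3WT, with 95% counting intervals as bars. The 3 H3K9M ratios run from 3.49 to 6.72 and the 3 H3WT ratios from 2.68 to 3.33.

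Comp was the most evenly expressed of the 10. It encodes a pentameric glycoprotein of the thrombospondin family that binds collagen fibrils and is made in tendon as well as in cartilage. Comp (chr8:70373558-70382066, plus strand) had 656, 776.5 and 530.4 CPM in H3K9M and 699, 793 and 802 CPM in H3WT. Its highest library was 1.51 times its lowest, against 4.93 to 25.3 times in the 7 other genes with no value of 0. It was also the single gene whose highest library was H3WT replicate 4. Its log2 difference was -0.22 (SE 0.16, 95% interval -0.60 to 0.15, edgeR adjusted p 0.621), and -0.19 without H3WT replicate 2. Other libraries moved it more, to -0.08 without H3K9M replicate 5 and -0.36 without H3K9M replicate 3. Within groups, the SD of log2 CPM was 0.21 for Comp, at percentile 32.8 of all tested genes.

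The matrilins are adaptor proteins that form filaments linking collagen fibrils and aggrecan, and their 3 genes here differed in pattern. Matn1 (chr4:130944385-130955475, plus strand) had 2.88, 6.18 and 13.8 CPM in H3K9M and 3.54, 72.8 and 45.4 CPM in H3WT. Both H3WT replicates 2 and 4 were above every H3K9M library, while H3WT replicate 1 was near the bottom. Between groups the log2 difference was -2.41 (SE 1.07, 95% interval -5.02 to 0.20, edgeR adjusted p 0.439), and -1.66 without H3WT replicate 2.

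Matn3 (chr12:8947929-8972028, plus strand) had 3.22, 1.69 and 2.65 CPM in H3K9M and 1.96, 12.04 and 1.41 CPM in H3WT. Apart from H3WT replicate 2, at 3.74 times the next library, 2 of the 3 H3K9M libraries lay above both other H3WT libraries. Its log2 difference of -1.03 (SE 0.82, edgeR adjusted p 0.651) became 0.58 without that library (95% interval -0.80 to 1.97).

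Matn4 was the member whose groups did not overlap. Matn4 (chr2:164389393-164405160, minus strand) had 2.08, 1.21 and 0.867 CPM in H3K9M and 2.36, 14.8 and 6.89 CPM in H3WT. These rest on 31, 25 and 17 reads and on 42, 285 and 117 reads, and the gap between the nearest libraries, H3K9M replicate 1 and H3WT replicate 1, was 2.08 to 2.36 CPM. Its log2 difference was -2.54 (SE 0.70, 95% interval -4.15 to -0.93, unadjusted p 0.00647, edgeR adjusted p 0.244). Over 13 alternatives the adjusted p ran from 0.0141 with DESeq2 to 0.509. Without H3WT replicate 2 the groups still did not overlap, and the log2 difference was -1.73 (95% interval -3.25 to -0.22, adjusted p 0.232). Groups without overlap were seen in 19.4% of all genes with 6 libraries and in 37.4% without H3WT replicate 2, and with H3K9M the lower in 8.68% and 17.9%, so 1 of 10 is near or under those shares. Exons of Rbpjl overlap Matn4 on the opposite strand, and Rbpjl had 0 counts in every library. The genes of the 10 share no stretch of 200 bases or more at 90% identity with another annotated gene.

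**Figure D3:**
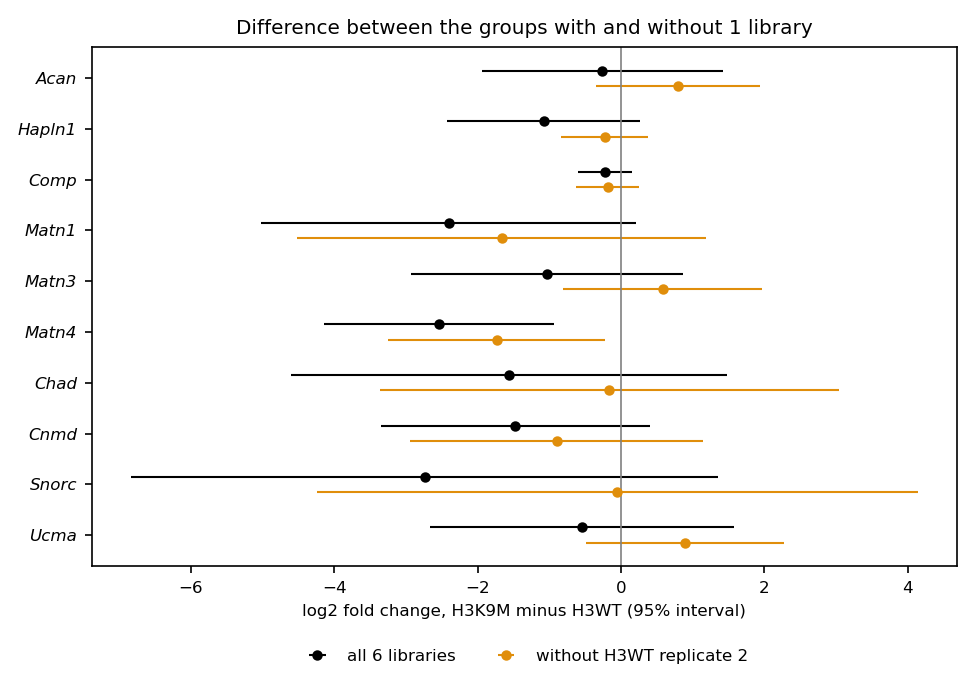
Log2 fold change (H3K9M minus H3WT, horizontal axis) of the 10 genes with 95% intervals, from all 6 libraries (black) and without H3WT replicate 2 (orange). Only the Matn4 interval stays below 0 in both, -4.15 to -0.93 and -3.25 to -0.22, and Acan, Matn3 and Ucma cross to values above 0.

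Chad encodes chondroadherin, a leucine-rich repeat protein that binds collagen and integrin receptors on chondrocytes. Chad (chr11:94565047-94569127, plus strand) had 0, 1.40 and 1.43 CPM in H3K9M and 0.449, 6.33 and 1.71 CPM in H3WT. The value of 0 in H3K9M replicate 1 allows up to 0.201 CPM (3 counts). Between groups the log2 difference was -1.56 (SE 1.31, edgeR adjusted p 0.674) and -0.16 without H3WT replicate 2. With all 6 libraries it was -1.59 with DESeq2 and -1.86 with limma-voom.

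Cnmd and Ucma encode secreted proteins and Snorc a membrane proteoglycan. Cnmd, chondromodulin, is known to keep blood vessels out of cartilage. Cnmd (chr14:79637690-79662170, minus strand) had 30.1, 92.9 and 62.3 CPM in H3K9M and 35.4, 284 and 197 CPM in H3WT. As with Matn1, H3WT replicates 2 and 4 were above all H3K9M libraries and H3WT replicate 1 among them. Its log2 difference was -1.48 (SE 0.77, 95% interval -3.35 to 0.40, edgeR adjusted p 0.49), and -0.90 without H3WT replicate 2 (95% interval -2.94 to 1.14).

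Snorc was close to the detection limit outside a single library. Snorc (chr1:87470271-87475482, plus strand) had 0, 0.676 and 0.306 CPM in H3K9M and 0, 6.12 and 0.707 CPM in H3WT. H3WT replicate 2 was 8.66 times the next library, from 118 reads, and the 0 values allow up to 0.201 CPM in H3K9M replicate 1 and 0.168 CPM in H3WT replicate 1. Its log2 difference of -2.74 (SE 1.76, edgeR adjusted p 0.568) was -0.05 without H3WT replicate 2 (95% interval -4.25 to 4.14).

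Ucma encodes a small matrix protein rich in gamma-carboxyglutamate, a modification that binds calcium. Ucma (chr2:4976122-4985748, plus strand) had 7.30, 15.7 and 14.0 CPM in H3K9M and 2.92, 40.5 and 10.5 CPM in H3WT. H3WT replicate 1 held the lowest and H3WT replicate 2 the highest value, with all H3K9M libraries between. Between groups the log2 difference was -0.54 (SE 0.88, edgeR adjusted p 0.856) and turned to 0.89 without H3WT replicate 2 (95% interval -0.49 to 2.28).

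The mean profile of the 10 genes spread widely among the H3WT libraries, though not every gene followed it: Comp was at -0.01, 0.17 and 0.19 in them, relative to its mean on the log2 scale, and Acan, Matn3 and Ucma were below their means in H3WT replicate 4. Relative to each gene's mean over the 6 libraries, the mean of the 10 on the log2 CPM scale was 1.99 in H3WT replicate 2 and 0.47 in H3WT replicate 4 but -1.04 in H3WT replicate 1. The H3K9M libraries were at -1.09, -0.22 and -0.11. H3WT replicate 1 and H3K9M replicate 1 were thus alike in this mean and lowest. By the median of the 10 they were at -0.98 and -0.65, less alike but still lowest. Chad (-3.31) and Snorc (-2.25) had 0 counts in H3K9M replicate 1, and Snorc also in H3WT replicate 1. There the prior count sets the log2 value. The median SD of log2 CPM within groups was 1.23 for the 10 genes and 0.30 for all tested genes, and 6 of the 10 were above percentile 90 of all genes. Hapln1 lay nearest to the mean of the other 9 (root mean square difference 0.40, log2) and Cnmd next (0.47), while Chad (1.13) and Snorc (1.12) lay farthest.

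**Figure D4:**
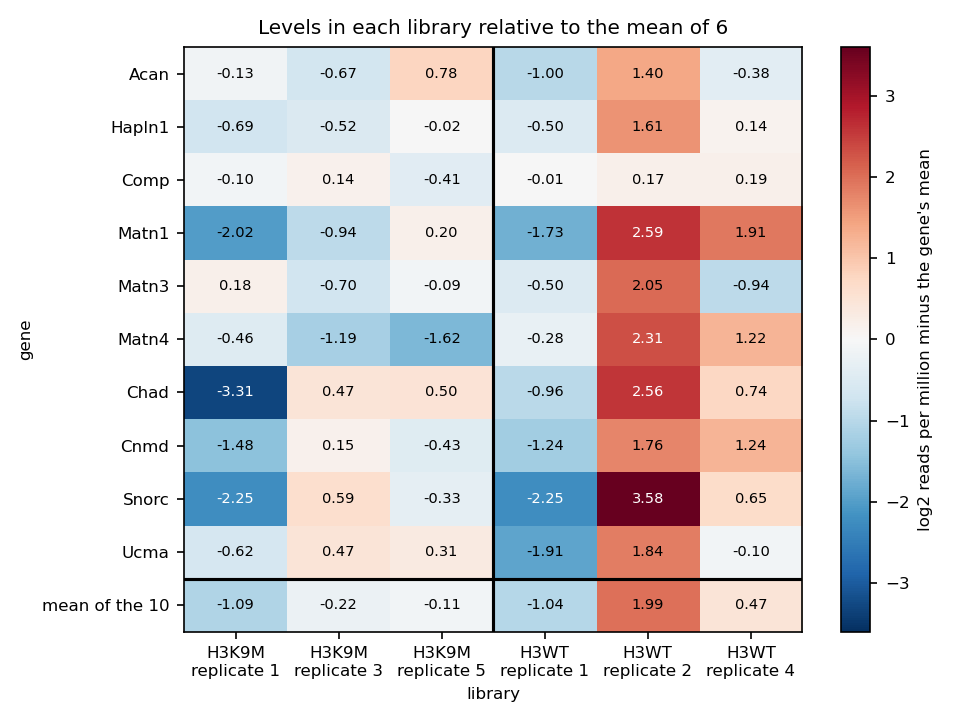
Log2 CPM minus the gene's mean over the 6 libraries (colour and printed value) for the 10 genes and their mean, with H3K9M libraries left and H3WT libraries right of the black line. H3WT replicate 2 is above 0 in every row and H3WT replicate 1 below 0 in every row, with Comp close to 0 throughout.

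Levels were compared between genes per kilobase of exon (CPM per kb, mean over 6 libraries). Comp had 239, Cnmd 63.5, Acan 43.8, Ucma 17.1, Hapln1 14.4, Matn1 12, Snorc 1.8, Matn3 1.27, Chad 1.12 and Matn4 0.908 CPM per kb. Comp was above Cnmd, Acan above Ucma and Matn1 above Snorc in 6 of 6 libraries. Cnmd with Acan, Ucma with Hapln1 and Matn3 with Chad kept their order in 4 of 6 libraries, and Hapln1 with Matn1 in 5. Snorc with Matn3 and Chad with Matn4 kept it in 3 of 6, so these neighbours are not ordered. For comparison, Col2a1 had 863 CPM per kb. Relative to Col2a1 in the same library, 1 of the 10 genes, Matn4, had ratios that did not overlap between the groups (lower in H3K9M), against 6.1% of all genes.

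The 5 genes outside the 10 whose profile was nearest to their mean were Gm34934, Peg3, Smpd3, Fgfr4 and Col27a1, out of 3679 genes whose own SD over the libraries was at least 0.5 times that of the mean profile. Their root mean square differences were 0.22, 0.25, 0.25, 0.32 and 0.33 (log2, 6 libraries). Peg3, an imprinted zinc-finger gene, had 134, 241 and 259 CPM in H3K9M and 182, 827 and 344 CPM in H3WT. Col27a1, a fibrillar collagen of cartilage, had 14.7, 57.9 and 36.3 CPM against 21.2, 176 and 60.4 CPM. In both, H3WT replicate 2 was the highest library. The 5 were chosen for likeness to a mean profile highest there, so this and the shift given next come with the choice. Without H3WT replicate 2 the log2 differences of the 5 lay between -0.71 and -0.15, from -1.63 to -1.09 with all libraries. None of the 5 passed the test (adjusted p 0.447 to 0.662, edgeR).

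Genes that work with these proteins were read from the same fit, in 5 lists written from general knowledge. Over the 5 lists 48 genes were tested and 0 passed the test in either direction (edgeR, 0% of all genes). DESeq2, with its own filter, called 8 of 54, against 2.38% of all genes. Among them were Htra1, Cilp, Prg4, Mmp3, Fmod, Chadl and Hapln4, named below (DESeq2 adjusted p 0.000429 to 0.0393). It did not call Has2, Vcan, Thbs1, Timp1, Matn2, Col9a1, Col9a2, Col2a1 or Sox9. At an unadjusted p under 0.05 there were 10 lower and 4 higher in H3K9M. Of all genes, 12.2% were under it in both directions together and 5.77% with H3K9M lower. Groups did not overlap in 10 of the 48, against 19.4% of all genes.

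Among the other hyaluronan-binding proteoglycans, link proteins, hyaluronan synthases and receptors, 7 of 9 tested genes had fold changes below 0 (50.4% of all genes). Without H3WT replicate 2 the count was also 7 of 9 (47% of all genes). The median was -0.99, and -1.17 without that library. Has2, which makes hyaluronan, had 15.01, 13.2 and 12.04 CPM in H3K9M and 22.3, 22.5 and 20.7 CPM in H3WT. No library of one group entered the range of the other, and the log2 difference was -0.70 (SE 0.18, edgeR adjusted p 0.236). Hapln4, a link protein known from brain, had a log2 difference of -1.78 (SE 0.47, adjusted p 0.239) and Vcan, the versican proteoglycan of loose tissue, -0.92 (SE 0.35, adjusted p 0.371), which was -0.41 without H3WT replicate 1. Unlike Acan, Vcan was highest in H3WT replicate 1 (262 CPM), where Acan was lowest.

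The paralogues and relatives of the 10 genes divided evenly, 4 below and 4 above 0 (50.4% of all genes below). Without H3WT replicate 2, 5 of 8 were below 0 (47% of all genes). The median was 0.04, and -0.09 without that library. Chadl, a relative of Chad, had 3.02, 3.38 and 2.60 CPM in H3K9M and 5.90, 7.37 and 12.2 CPM in H3WT, with no overlap (log2 difference -1.50, SE 0.38, edgeR adjusted p 0.227). Matn2, the matrilin of many tissues outside cartilage, lay between 27.9 and 42.2 CPM in all libraries (log2 difference 0.17, SE 0.17). Thbs1, a relative of Comp, had a log2 difference of -0.77 (SE 0.34, adjusted p 0.41), and -0.51 without H3K9M replicate 3.

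Of the proteases and inhibitors that act on these proteins, 10 of 12 tested had fold changes below 0 (50.4% of all genes). Without H3WT replicate 2 the count was also 10 of 12 (47% of all genes). The median was -0.98, and -1.08 without that library. Mmp3, stromelysin, had 0.804, 0.773 and 1.89 CPM in H3K9M and 5.45, 7.63 and 3.004 CPM in H3WT (log2 difference -2.20, SE 0.59, edgeR adjusted p 0.239). Htra1, a serine protease of cartilage, had 463, 351 and 309.5 CPM against 175, 197 and 212 CPM (log2 difference 0.94, SE 0.17, adjusted p 0.17). Timp1, a metalloproteinase inhibitor, was at 0.54 (SE 0.17, adjusted p 0.28). Groups did not overlap in 4 of the 12 (19.4% of all genes): Mmp3 and Adamts9, with H3K9M lower, and Htra1 and Timp1, with H3K9M higher.

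The cartilage collagens and the Sox trio had 8 of 9 fold changes below 0 (50.4% of all genes). Without H3WT replicate 2 it was 6 of 9 (47% of all genes). The median was -0.61, and -0.29 without that library. Col9a2 was at -2.13 (SE 0.76, edgeR adjusted p 0.357), Col9a1 at -1.89 (SE 0.75, adjusted p 0.395), Col2a1 at -0.61 (SE 0.39, adjusted p 0.558) and Sox9 at -0.60 (SE 0.27, adjusted p 0.429). Without H3WT replicate 2 they were at -1.62, -1.16, -0.22 and -0.38, in the same order. No gene of this list had groups without overlap.

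The list of other small cartilage matrix and secreted proteins had 5 of 10 below 0 (50.4% of all genes). Without H3WT replicate 2 it had 2 of 10 (47% of all genes). The median of -0.03 became 1.15 without that library. Prg4, the lubricant of the joint surface, had 138, 131 and 129 CPM in H3K9M and 95.6, 68.0 and 74.6 CPM in H3WT (log2 difference 0.74, SE 0.15, edgeR adjusted p 0.18). Its groups did not overlap (19.4% of all genes), and with all 6 libraries its direction was opposite to that of the 10 genes. Without H3WT replicate 2 Prg4 was at 0.65, and Acan (0.79), Matn3 (0.58) and Ucma (0.89) were above 0 as well. Cilp had 1.27, 1.88 and 6.79 CPM against 0.337, 0 and 0 CPM, and Fmod, a collagen-binding proteoglycan, had a log2 difference of -0.93 (SE 0.30, adjusted p 0.294).

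**Figure D5:**
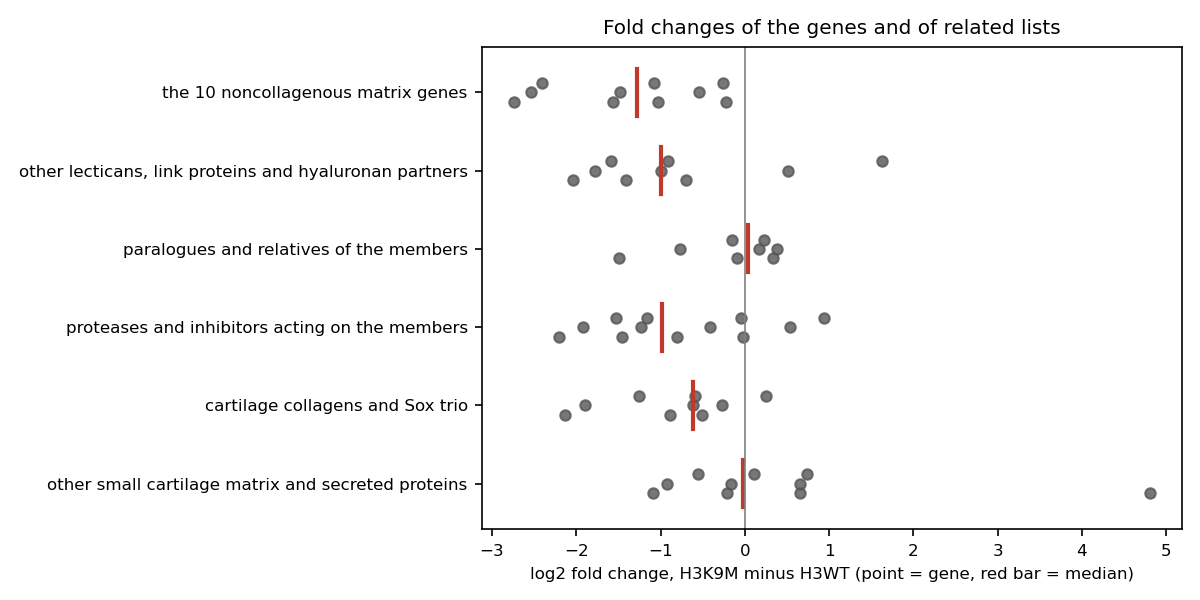
Log2 fold changes (H3K9M minus H3WT, horizontal axis) of the tested genes of each list (points, from all 6 libraries) with the list's median in red. The medians are -1.28 for the 10 genes, -0.99, 0.04, -0.98, -0.61 and -0.03 for the 5 related lists from top to bottom.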

How the data were processed

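The deposited table holds raw counts of reads per gene symbol, 1 column per library, not normalised by the authors, as judged from whole numbers with unequal totals. HISAT2, featureCounts and DESeq2 and the build mm10 are named in the submitters' processing notes. Versions, annotation and strand setting are not given in the sources used here. Columns were matched to samples by title.

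Tests were run with edgeR 4.0.16 in R 4.3.3 (filterByExpr, TMM scaling, robust quasi-likelihood fit over the 6 libraries, genotype as the only term), with Benjamini-Hochberg adjustment over 13761 genes and a threshold of 0.05. The SE is the size of the log2 fold change over the square root of F. CPM is TMM-normalised, and log2 CPM uses a prior count of 2. Alternatives were DESeq2 1.42.0, limma-voom (limma 3.58.1), 2 other scalings, 2 other filters, no robust estimation and leaving out each library. The code was tested on simulated data. Exon lengths and coordinates are from GENCODE M21, promoter windows from RefSeq GRCm38.p6, and similar transcripts from blastn 2.17.0. Intervals on read ratios and limits for 0 counts cover counting error only.

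The 10 genes and the lists were chosen with earlier results of these data known. Named were the 10 genes, up to 3 genes with the smallest p of each related list, Col2a1, Sox9 and the 5 genes of nearest profile; muscle and fibroblast markers, and Matn2, Peg3 and Col27a1 in detail, were picked after their values were seen. Snorc also stood in a related list under its older symbol and was counted once, with the 10 genes.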

Additional observations from a re-analysis of the deposited data

How the results depend on the processing

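The count of genes past the threshold was 0 over all genes, among the 10 genes and in the related lists. With every gene that had a count it was 36 over all genes, 0 of the 10 and 1 in the lists. With the DESeq2 Wald test it was 365, 1 (Matn4) and 8. It stayed at 0 in all 3 under both other scalings, with at least 10 counts in every library, with limma-voom and without robust estimation. Leaving out a library gave 0 to 91 genes over all genes (91 without H3WT replicate 2, 2 without H3K9M replicate 3), and 0 of the 10 and 0 in the lists each time. At an unadjusted p under 0.05 the count of the 10 was 1 with edgeR and all libraries. It was 2 with DESeq2, 2 without robust estimation and 0 with limma-voom. Leaving out a library gave 1 to 4 in edgeR, with 4 without H3WT replicate 1 and 2 without H3K9M replicate 3. The share of all genes was counted only with all 6 libraries and without H3WT replicate 2. Where counts moved, the cause was not tested. The median log2 fold change of the 10 was -1.70 when H3WT replicate 1 was left out and -0.175 when H3WT replicate 2 was, the extremes, and the number below 0 ran from 7 to 10. With all 6 libraries, 1 of 68 fold changes of single genes of the 10 turned sign, Ucma with limma-voom (0.13). Leaving out single libraries turned the sign of 3 genes, whose values ran from -0.74 to 0.79 for Acan, -1.47 to 0.58 for Matn3 and -1.05 to 0.89 for Ucma. At least 10 counts in every library left 8 of the 10 genes, without Chad and Snorc. No paired analysis was possible because the groups share only 1 replicate number. Snorc and Chad had libraries at 0 counts, and 17 to 285 reads of Matn4 lay behind its values.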
